A study of Homo sapiens with 4 samples.

Results

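Wnt ligands, their receptors and their secreted antagonists were examined in 2 HER2-positive breast cancer cell lines and in a lapatinib-resistant clone of each. The set was given as a list of 47 gene names: 17 Wnt ligands, 14 receptors and co-receptors, 10 secreted antagonists, and 6 feedback regulators, targets or transcription factors of the pathway. The genes were taken by name and not by a measured value. Probes were matched for 46 of the 47 genes, with 66 probes among them, out of 16422 named genes and 41000 probes on each array. No probe was matched to ZNRF3, which is not analysed here.

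Total RNA from parental SkBr3 and parental BT474 cells, labeled as vehicle-treated, and from their resistant derivatives SkBr3/Lap and BT474/Lap, labeled as lapatinib-treated, was hybridized to Agilent one-color 4 × 44 K arrays, 1 array for each of the 4 cell populations. Lapatinib blocks the kinase activity of EGFR and HER2, and the resistant cells had been selected by raising its concentration to 1 μM. Each resistant population is 1 clone, and by the labels it differs from its parent in drug treatment as well. What belongs to resistance, to that clone or to the presence of lapatinib therefore cannot be told apart. The sample labels number the clones 3 for SkBr3 and 6 for BT474, while the deposited file names give 6 for SkBr3 and 3 for BT474; the cell line of each array is the same in both.

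Wnt proteins are lipid-modified secreted ligands that bind Frizzled (FZD) receptors. Together with the co-receptors LRP5 and LRP6 they stabilize β-catenin, which then acts with TCF and LEF factors on target genes, whereas other ligands, often through ROR receptors, signal without β-catenin. Of the DKK proteins, DKK1 blocks LRP5 and LRP6, while SFRP proteins, FRZB and WIF1 bind the ligands themselves. In the mammary gland Wnt signaling is known for its part in branching and in the maintenance of basal and progenitor cells.

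Values are given as relative signals, the probe's signal as a percent of the 75th percentile of its array. This percentile was a signal of 1115 (SkBr3), 2074 (SkBr3/Lap), 1158 (BT474) or 1681 (BT474/Lap). The lowest signal that the software marked as well above background corresponded to a relative signal between 0.641% and 1.44% on the 4 arrays. Signals without this mark were raised to that limit, if lower, and such fold changes are written as "at least". A gene was represented by its brightest probe, that with the highest mean log2 signal over the 4 arrays, which need not be the brightest on each array. A difference of at least 2-fold was counted. With 1 array per population no replicate error can be given, and no test was possible within a cell line. Among the 10 spots of a repeated probe the median SD lay between 0.075 and 0.081 (log2), which covers only the spread within an array.

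The labels of the arrays were checked with markers and correlations. Of 9 markers of HER2-positive luminal cells, 8 were well above background in SkBr3 and SkBr3/Lap and all 9 in BT474 and BT474/Lap. CDH1 (E-cadherin) was the exception, at background in both SkBr3 populations. FOXA1 (5.40-fold), ERBB2 (3.74-fold) and GRB7 (2.29-fold) were lower in SkBr3/Lap than in SkBr3, and none of the 9 was at least 2-fold higher there. Each clone correlated best with its own parental cells, with r = 0.896 for the SkBr3 pair and r = 0.951 for the BT474 pair over 25927 probes, against 0.733 to 0.825 for the other pairs. SkBr3/Lap was hybridized on a separate slide from the other 3 populations, so that clone and slide cannot be told apart for SkBr3, whereas the BT474 pair and the parental pair each lay within 1 slide.

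Between 26 and 31 of the 46 genes were well above background by at least 1 probe on each array, with 26 in SkBr3, 27 in BT474 and 31 in each clone. That was 56.5% to 67.4% of the set, against 74.9% to 81.3% of all named genes. On all 4 arrays, 21 genes were well above background, and 11 of the 14 receptors and co-receptors were so by their brightest probe. In contrast, 8 genes were well above background on none of the arrays, namely WNT8B, WNT16, FZD10, ROR2, DKK4, SFRP4, SFRP5 and LGR5. A signal of at least 100 on 1 or more arrays was found for 31 genes, and the other 15 did not pass this filter.

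**Figure D1:**
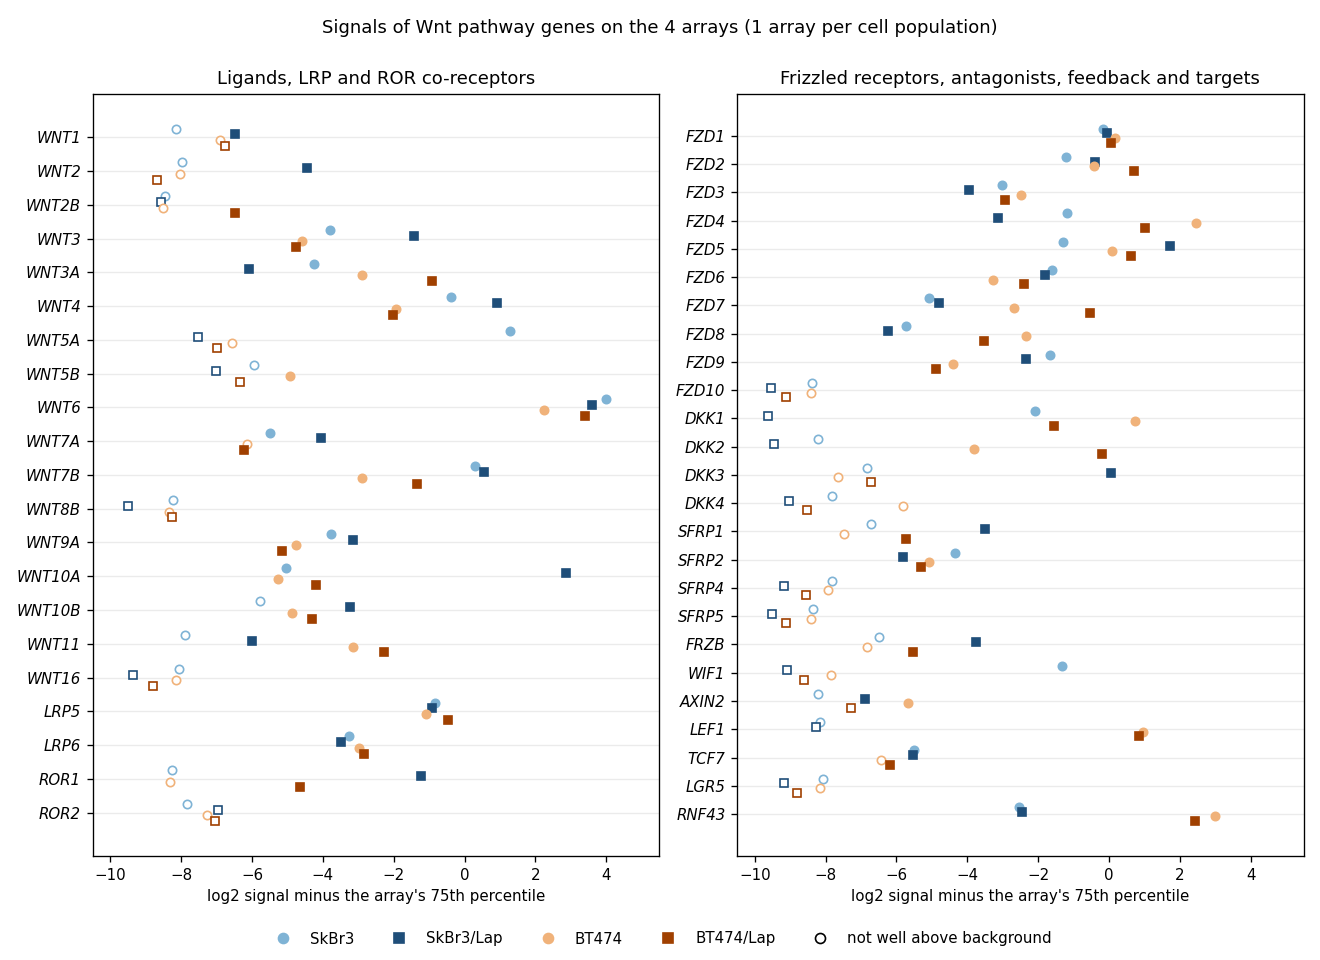
Signals of the 46 genes on the 4 arrays, drawn as the log2 signal minus the 75th percentile of the array, with 1 point per array and open points for signals not well above background. WNT5A and WIF1 stood above background in SkBr3 alone and LEF1 in BT474 and BT474/Lap alone, whereas FZD1, LRP5 and LRP6 lay close together on all 4 arrays.

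The comparison of each clone with its own parental cells shows which of these genes differed between lapatinib-treated resistant cells and vehicle-treated parental cells. SkBr3/Lap had more WNT10A (239.5-fold), DKK3 (at least 72.1-fold), ROR1 (at least 29.7-fold) and FZD5 (8.01-fold) than SkBr3, and less WNT5A (at least 380-fold), WIF1 (at least 61.8-fold) and DKK1 (at least 36.3-fold). BT474/Lap had more DKK2 (12.3-fold), FZD7 (4.38-fold) and WNT3A (3.94-fold) than BT474, and less DKK1 (4.90-fold) and FZD4 (2.73-fold). In SkBr3/Lap, 10 of 29 genes with a value were at least 2-fold higher and 5 were at least 2-fold lower than in SkBr3, while 13.9% of all 11787 genes were higher and 13.4% were lower. In BT474/Lap, 8 of 27 genes were higher and 3 were lower than in BT474, against 8.84% and 5.29% of 11835 genes. The median log2 difference of the set was 0.12 (SkBr3/Lap) and 0.52 (BT474/Lap), and that of all genes was −0.05 and −0.08. These medians include limits and depended on the processing, with 0.02 to 0.37 and 0.13 to 0.77 for the set under the alternatives. With only genes well above background on all 4 arrays, the medians of the set were 0.02 and 0.13. A gene that was at background in one population of a pair entered these counts only if it was bright elsewhere. Among genes well above background on all 4 arrays, 4 of 21 were higher and 3 were lower in SkBr3/Lap (all such genes, 10.2% and 12.7%), and 6 of 21 were higher and 2 were lower in BT474/Lap (6.08% and 4.62%). The lower genes in SkBr3/Lap were thus near the share of all genes. In RNA from whole cultures, fewer cells that carry a transcript and less of it per cell cannot be told apart.

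Both clones gave values for 25 genes. WNT10A and ROR1 exceeded 2-fold upward in both clones (2 of 25; all genes, 2.61%), FZD4 and DKK1 were at least 2-fold lower in both (2 of 25; all genes, 1.28%), and WNT3A was lower in SkBr3/Lap and higher in BT474/Lap (1 of 25; all genes, 2.72%). Across the 25 genes, which are not independent replicates, the 2 sets of log2 values or limits had r = 0.45, against r = 0.09 over all 11463 genes. The 25 include WNT10A (7.90 in SkBr3/Lap and 1.05 in BT474/Lap), ROR1 (limits of 4.89 and 1.53) and DKK1 (a limit of −5.18, and −2.29). WNT10A and ROR1 had passed the signal filter through SkBr3/Lap alone. No r was calculated without these genes or without limits, so a response shared by the set was not tested. In all, 21 of 31 genes of the set differed by 2-fold or more in at least 1 clone, against 34% of all 12159 genes.

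**Figure D2:**
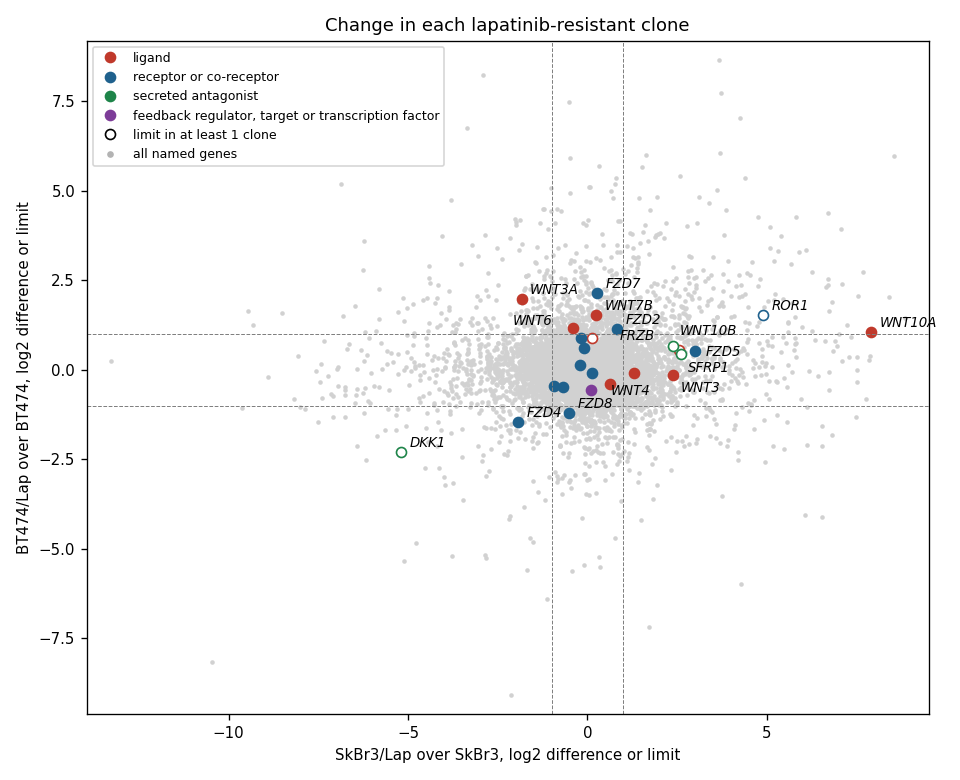
Log2 difference or limit of SkBr3/Lap over SkBr3 (horizontal) and of BT474/Lap over BT474 (vertical) for 25 genes of the set, colored by role, and for all named genes in gray; dashed lines mark 2-fold. WNT10A and ROR1 lay in the upper right corner, DKK1 and FZD4 in the lower left, and WNT3A in the upper left.

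Among the 17 ligands, 11 passed the filter. In SkBr3/Lap 5 of 11 were at least 2-fold higher and 2 were lower (all genes, 13.9% and 13.4%), with a median log2 difference of 0.62. In BT474/Lap 4 of 9 were higher and none was lower (all genes, 8.84% and 5.29%), with a median of 0.90. The ligands at least 2-fold higher in SkBr3/Lap were WNT3, WNT4, WNT7A, WNT10A and WNT10B, and those in BT474/Lap were WNT3A, WNT6, WNT7B and WNT10A. WNT7A, WNT10A and WNT10B had passed the signal filter through SkBr3/Lap alone, and WNT5A, lower in SkBr3/Lap, through SkBr3 alone. The ligand counts and median in SkBr3/Lap thus depend in part on the filter.

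WNT10A, a ligand of the β-catenin branch known for its role in skin, hair and tooth development, showed the largest measured difference of the set in SkBr3/Lap. Its relative signal was 3.02% in SkBr3 against 723% in SkBr3/Lap, and 2.62% in BT474 against 5.42% in BT474/Lap. SkBr3/Lap stood far above the other 3 populations, at 239.5-fold over its parent, while BT474/Lap was 2.07-fold over BT474. The second WNT10A probe was well above background in the clones only and gave at least 81.2-fold in SkBr3/Lap and at least 1.04-fold in BT474/Lap. In BT474/Lap the WNT10A difference was thus just past 2-fold, and 5 of 11 alternative ways of processing put it below.

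WNT5A, the best-known ligand of the branch that does not use β-catenin, showed the largest difference of the set in the other direction. Its relative signal was 244% in SkBr3 against 0.544% in SkBr3/Lap, and 1.06% in BT474 against 0.785% in BT474/Lap, the last 3 not being well above background. WNT5A was therefore bright in SkBr3 alone and at least 380-fold lower in SkBr3/Lap, by its only probe. No WNT5A fold change can be given for BT474/Lap.

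The sequences of the 250 bases before the transcription start are shown for the 4 genes that differed in the same direction in both clones and for WNT5A, to show what their promoters have in common and where they differ. They come from the RefSeq annotation of GRCh38.p14 and are written 5′ to 3′ on the strand of the gene, here for the 2 ligands. Capitals mark matches on either strand to the κB consensus, the site that NF-κB binds, or to the TCF/LEF core CTTTGA or CTTTGT.

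WNT10A, chr2:218880602-218880851, plus strand: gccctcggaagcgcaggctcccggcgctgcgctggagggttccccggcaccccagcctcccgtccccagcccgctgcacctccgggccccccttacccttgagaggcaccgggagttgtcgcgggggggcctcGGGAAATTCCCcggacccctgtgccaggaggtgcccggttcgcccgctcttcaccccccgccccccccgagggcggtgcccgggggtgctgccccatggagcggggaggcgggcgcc

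WNT5A, chr3:55487307-55487556, minus strand: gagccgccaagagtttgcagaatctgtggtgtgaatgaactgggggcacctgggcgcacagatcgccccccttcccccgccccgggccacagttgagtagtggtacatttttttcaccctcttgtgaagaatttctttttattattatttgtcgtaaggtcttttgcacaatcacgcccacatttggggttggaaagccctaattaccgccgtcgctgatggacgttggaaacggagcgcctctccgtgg

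The WNT10A promoter held 2 overlapping κB matches, on opposite strands, beginning 117 and 116 bases before the start. The WNT5A window, taken at the first of the 2 starts listed for this gene, held neither motif. Promoter sequences were matched for 31 of the 47 genes. The κB consensus was found in 6 of these 31 windows (WNT4, WNT7A, WNT10A, WNT16, FZD5 and FZD9), against 9.57% of 27305 promoters. A TCF/LEF core was found in 5 of the 31 (WNT8B, FZD1, ROR2, DKK1 and RNF43), against 22.9% of all promoters. The windows of the set held a median of 24 CG dinucleotides, against 11 over all promoters. These are matches of letters only, and binding was not measured here.

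WNT6 is the gene next to WNT10A on chromosome 2, with no protein-coding gene between them, and its 2 probes differed. By the probe that was brighter on average, though not in SkBr3/Lap, the relative signal was 1607% in SkBr3 against 1209% in SkBr3/Lap, and 470.0% in BT474 against 1047% in BT474/Lap. WNT6 was thus bright everywhere by this probe, lower by 1.33-fold in SkBr3/Lap and higher by 2.23-fold in BT474/Lap, or by under 2-fold when the array median was the scale. The other probe gave 49.8% in SkBr3 against 2281% in SkBr3/Lap, and 73.0% in BT474 against 629.7% in BT474/Lap. By that probe both clones stood far above their parents, 45.8-fold in SkBr3/Lap and 8.62-fold in BT474/Lap, so that the probes had opposite signs in SkBr3/Lap. The spread of 5.93 on the log2 scale between the WNT6 probes exceeded the 95th percentile of 1.58 over 3961 genes with several probes. Which of the probes follows the WNT6 transcript was not tested.

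WNT10B, another β-catenin ligand active in mammary tissue, had a relative signal of 1.82% in SkBr3, not well above background, against 10.7% in SkBr3/Lap, and of 3.42% in BT474 against 5.01% in BT474/Lap. The clones were higher than their parents, at least 5.90-fold for SkBr3 and 1.47-fold for BT474. Its neighbor WNT1, with no protein-coding gene between them on chromosome 12, was well above background in SkBr3/Lap alone, at 1.12%, too low for a fold change.

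WNT3, a β-catenin ligand, had a relative signal of 7.16% in SkBr3 against 37.1% in SkBr3/Lap, and 4.15% in BT474 against 3.71% in BT474/Lap. It was 5.18-fold higher in SkBr3/Lap and within 1.12-fold between the BT474 populations. WNT3A, the ligand most used to activate the β-catenin branch in culture, had 5.29% in SkBr3 against 1.48% in SkBr3/Lap, and 13.3% in BT474 against 52.6% in BT474/Lap. It was lower by 3.58-fold in SkBr3/Lap and higher by 3.94-fold in BT474/Lap, the only gene of the set past 2-fold in opposite directions. The direction of WNT3A held in all 11 alternatives, but the decrease in SkBr3/Lap was under 2-fold with normexp background correction.

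WNT4, which acts downstream of progesterone in mammary side-branching, had a relative signal of 77.2% in SkBr3 against 189% in SkBr3/Lap, and 26.4% in BT474 against 24.5% in BT474/Lap. In SkBr3/Lap it was 2.44-fold higher and it was 1.07-fold lower in BT474/Lap, and its second probe gave 1.87-fold and 1.06-fold higher. WNT7A, a ligand of the female reproductive tract and limb, was low throughout, with 2.21% in SkBr3 against 6.04% in SkBr3/Lap, and 1.41% in BT474 against 1.32% in BT474/Lap, the value in BT474 not being well above background. It was 2.73-fold higher in SkBr3/Lap, though under 2-fold with normexp background correction or with 16 added to the signals. WNT7B, its close relative, had 123% in SkBr3 against 146% in SkBr3/Lap, and 13.5% in BT474 against 39.1% in BT474/Lap, and was 2.90-fold higher in BT474/Lap and 1.18-fold higher in SkBr3/Lap.

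WNT9A passed the filter and stayed under 2-fold in both clones. WNT11 was 1.86-fold higher in BT474/Lap, and in SkBr3/Lap only a limit of at least 1.09-fold could be given. WNT2 was well above background only in SkBr3/Lap, at 4.59% against 0.394% in SkBr3, 0.385% in BT474 and 0.242% in BT474/Lap, at least 3.20-fold higher than in SkBr3, but its signal was under 100. WNT5B, under 100 as well, was well above background only in BT474, at 3.30% against 1.22% in BT474/Lap, 1.64% in SkBr3 and 0.768% in SkBr3/Lap, and lower by at least 2.70-fold in BT474/Lap. WNT2B was well above background only in BT474/Lap, at 1.12%, and no fold change can be given.

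Of the 14 receptors and co-receptors, 12 passed the filter. In SkBr3/Lap 2 of 12 were at least 2-fold higher (FZD5 and ROR1) and 1 was lower (FZD4), against 13.9% and 13.4% of all genes. These counts were near the shares of all genes. In BT474/Lap 3 of 12 were higher (FZD2, FZD7 and ROR1) and 2 were lower (FZD4 and FZD8), against 8.84% and 5.29% of all genes. The median log2 difference of the 12 was −0.14 in SkBr3/Lap and 0.33 in BT474/Lap.

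ROR1, a receptor tyrosine kinase that binds WNT5A and is abundant in the embryo and scarce in adult tissue, was at background in both parental lines. Its relative signal was 0.325% in SkBr3 against 42.6% in SkBr3/Lap, and 0.314% in BT474 against 3.99% in BT474/Lap. ROR1 was thus well above background only in the clones, by 1 probe, exceeding the parent at least 29.7-fold for SkBr3 and at least 2.89-fold for BT474. In BT474/Lap the limit was under 2-fold with normexp background correction or with 16 added to the signals. ROR2 was well above background on no array.

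FZD4, the receptor for Norrin as well as for Wnt ligands, had a relative signal of 43.7% in SkBr3 against 11.4% in SkBr3/Lap, and 549.5% in BT474 against 202% in BT474/Lap. Each clone was lower than its parent, 3.82-fold for SkBr3 and 2.73-fold for BT474, while both BT474 populations stood above both SkBr3 populations. The second FZD4 probe was above background in the BT474 pair only and gave 2.23-fold lower. The promoters of these 2 receptor genes, for comparison with those of the ligands, held neither motif.

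FZD4, chr11:86955396-86955645, minus strand: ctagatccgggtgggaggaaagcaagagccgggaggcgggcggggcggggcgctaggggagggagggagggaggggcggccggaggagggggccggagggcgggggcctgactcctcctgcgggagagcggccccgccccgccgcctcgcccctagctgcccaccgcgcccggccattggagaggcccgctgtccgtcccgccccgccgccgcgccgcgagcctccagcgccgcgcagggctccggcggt

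ROR1, chr1:63773767-63774016, plus strand: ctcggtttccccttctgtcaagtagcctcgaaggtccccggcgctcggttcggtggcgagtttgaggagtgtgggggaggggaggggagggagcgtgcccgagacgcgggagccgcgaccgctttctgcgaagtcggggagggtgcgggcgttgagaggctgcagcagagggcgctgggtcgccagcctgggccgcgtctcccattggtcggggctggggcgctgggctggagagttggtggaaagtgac

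FZD5, a receptor of the β-catenin branch, had a relative signal of 41.0% in SkBr3 against 328% in SkBr3/Lap, and 107% in BT474 against 154% in BT474/Lap. FZD5 exceeded its parental level 8.01-fold in SkBr3/Lap and 1.44-fold in BT474/Lap, and its other 2 probes gave 6.54-fold and 7.43-fold in SkBr3/Lap, with 2.04-fold and 1.42-fold in BT474/Lap. On the log2 scale the 3 FZD5 probes spanned 0.29 in SkBr3/Lap and 0.52 in BT474/Lap.

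FZD7, a Frizzled receptor linked to stem cells, had a relative signal of 2.98% in SkBr3 against 3.60% in SkBr3/Lap, and 15.6% in BT474 against 68.4% in BT474/Lap. It was 4.38-fold higher in BT474/Lap and 1.21-fold higher in SkBr3/Lap. FZD2, its close relative, had 43.4% in SkBr3 against 76.5% in SkBr3/Lap, and 75.04% in BT474 against 164% in BT474/Lap, exceeding the parent 1.76-fold in SkBr3/Lap and 2.19-fold in BT474/Lap. The difference of FZD2 in BT474/Lap was under 2-fold, and that in SkBr3/Lap over 2-fold, under 1 other scaling each.

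FZD8, a further Frizzled receptor, had 1.88% in SkBr3 against 1.33% in SkBr3/Lap, and 19.7% in BT474 against 8.59% in BT474/Lap. It was 2.29-fold lower in BT474/Lap and 1.42-fold lower in SkBr3/Lap. The decrease of FZD8 in BT474/Lap was under 2-fold when the percentile excluded probes at background. The co-receptors differed by less than 2-fold in both clones. LRP5 had 56.0% in SkBr3 against 52.6% in SkBr3/Lap, and 47.1% in BT474 against 72.4% in BT474/Lap, and LRP6 had 10.3%, 8.89%, 12.7% and 13.9% in the same order. LRP5 differed by 1.06-fold and 1.54-fold, and LRP6 by 1.16-fold and 1.09-fold, between clone and parent. FZD1, FZD3, FZD6 and FZD9 were well above background on all 4 arrays, and their differences stayed under 2-fold in both clones.

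Of the 10 secreted antagonists, 6 passed the filter, and none of these was well above background on all 4 arrays, so that each was counted through the populations in which it was bright. Of 5 with a value in SkBr3/Lap, DKK3, SFRP1 and FRZB were higher and DKK1 and WIF1 were lower (all genes, 13.9% and 13.4%). Of 4 with a value in BT474/Lap, DKK2 was higher and DKK1 was lower (all genes, 8.84% and 5.29%). Of the 6, all but DKK1 and DKK2 were at background in BT474 and reached at most 2.17% in BT474/Lap.

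DKK1, the inhibitor of LRP5 and LRP6 that is itself a known target of β-catenin, had a relative signal of 23.3% in SkBr3 against 0.128% in SkBr3/Lap, and 167% in BT474 against 34.2% in BT474/Lap. The SkBr3/Lap signal was at background, so DKK1 was at least 36.3-fold lower there, and it was 4.90-fold lower in BT474/Lap. The DKK1 promoter held the most TCF/LEF cores of the 31 windows, 3 of them, beginning 149, 95 and 76 bases before the start.

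DKK1, chr10:52314031-52314280, plus strand: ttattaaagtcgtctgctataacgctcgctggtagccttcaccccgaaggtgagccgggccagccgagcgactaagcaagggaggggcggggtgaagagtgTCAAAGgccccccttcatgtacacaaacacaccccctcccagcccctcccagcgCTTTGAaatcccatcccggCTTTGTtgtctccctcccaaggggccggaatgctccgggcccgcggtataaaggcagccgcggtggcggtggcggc

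DKK2, a relative that can inhibit or assist LRP6, had 0.334% in SkBr3 and 0.142% in SkBr3/Lap, both at background, with 7.07% in BT474 and 86.9% in BT474/Lap. It was above background in the BT474 pair only and was 12.3-fold higher in the clone, and its second probe gave 6.87-fold. DKK3, a divergent member of the family, had 0.886% in SkBr3 against 104% in SkBr3/Lap, and 0.497% in BT474 against 0.952% in BT474/Lap. All 3 DKK3 probes were above background in SkBr3/Lap alone, with limits of at least 72.1-fold, 11.1-fold and 9.98-fold higher than in SkBr3.

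SFRP1 had a relative signal of 0.942% in SkBr3 against 8.78% in SkBr3/Lap, and 0.559% in BT474 against 1.88% in BT474/Lap. FRZB had 1.11% in SkBr3 against 7.44% in SkBr3/Lap, and 0.872% in BT474 against 2.17% in BT474/Lap. Both of these Wnt-binding antagonists were well above background in the clones only, at least 6.11-fold (SFRP1) and 5.18-fold (FRZB) higher in SkBr3/Lap, with limits of 1.36-fold and 1.57-fold in BT474/Lap. Their second probes, above background in SkBr3/Lap alone, gave at least 16.3-fold and 2.71-fold there. WIF1, which binds Wnt proteins through a domain of its own, had 39.6% in SkBr3 against 0.182% in SkBr3/Lap, and 0.433% in BT474 against 0.257% in BT474/Lap. WIF1 was above background in SkBr3 alone and at least 61.8-fold lower in SkBr3/Lap, but its second probe was at background on all 4 arrays. SFRP2, with a signal under 100, had 4.94% in SkBr3 and 1.77% in SkBr3/Lap, 2.79-fold lower, with 2.97% in BT474 and 2.52% in BT474/Lap.

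**Figure D3:**
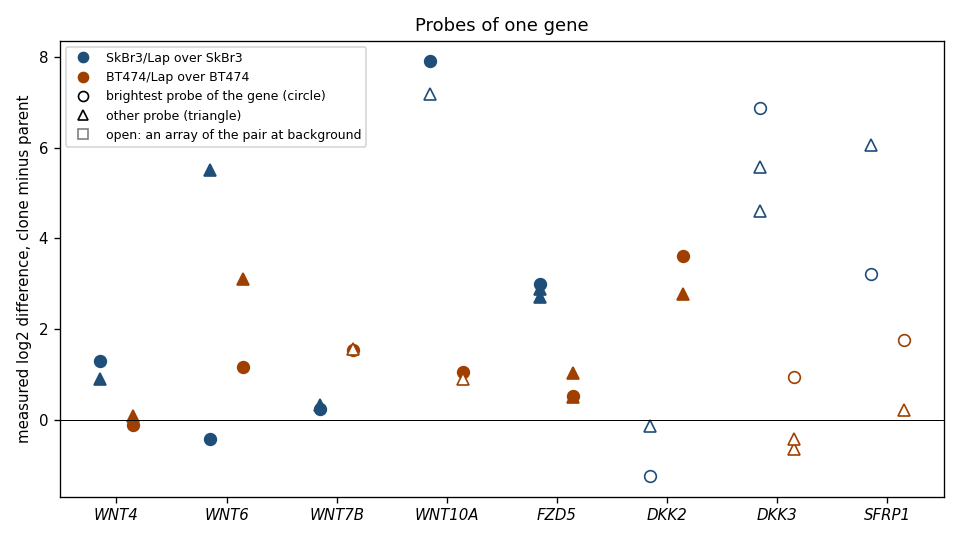
Measured log2 difference between clone and parent for each probe of the 8 genes with more than 1 probe past the filter; circles are the brightest probe, triangles other probes, and open symbols have an array of the pair at background. The WNT6 probes lay on opposite sides of 0 in SkBr3/Lap, whereas those of WNT4, WNT10A, FZD5, DKK3 and SFRP1 were all above 0 there.

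Among the feedback regulators, targets and transcription factors, none differed by 2-fold in a clone by a probe past the filter. AXIN2, a scaffold of the β-catenin destruction complex whose transcription follows the pathway, was near background throughout. Its relative signal was 0.338% in SkBr3 against 0.842% in SkBr3/Lap, and 1.95% in BT474 against 0.636% in BT474/Lap, with only the SkBr3/Lap and BT474 values well above background. In BT474/Lap AXIN2 was lower by at least 2.24-fold, at a signal under 100. RNF43, a ubiquitin ligase that removes Frizzled receptors from the cell surface, was within 1.07-fold in the SkBr3 pair and 1.48-fold lower in BT474/Lap. LEF1 was 1.07-fold lower in BT474/Lap and at background in the SkBr3 pair. TCF7 was low on all arrays, and LGR5, a receptor for R-spondins, was at background on all 4.

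The comparison of the parental lines shows the levels from which the clones started. In BT474, 10 of 27 genes were at least 2-fold higher and 7 were lower than in SkBr3, against 19.4% and 19% of 11921 genes. Among genes well above background on all 4 arrays, 6 of 21 were higher and 5 were lower, against 15.7% and 17.1% of all such genes. LEF1, a partner of β-catenin on DNA, had a relative signal of 0.347% in SkBr3 against 0.324% in SkBr3/Lap, and 194% in BT474 against 182% in BT474/Lap. RNF43 had 17.1% in SkBr3 against 18.2% in SkBr3/Lap, and 803% in BT474 against 542% in BT474/Lap. Both genes thus differed far more between the cell lines than between clone and parent, LEF1 being at least 135-fold and RNF43 47.04-fold higher in BT474 than in SkBr3. The second LEF1 probe was far dimmer and gave at least 1.37-fold. FZD4 (12.6-fold), FZD8 (10.5-fold), WNT11 (at least 7.79-fold), DKK1 (7.18-fold), FZD7 (5.24-fold) and DKK2 (at least 4.92-fold) were also higher in BT474. WNT5A (at least 177-fold), WIF1 (at least 28.8-fold), WNT7B (9.14-fold) and FZD9 (6.71-fold) were lower in BT474. This comparison uses the same parental arrays as those of the clones.

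**Figure D4:**
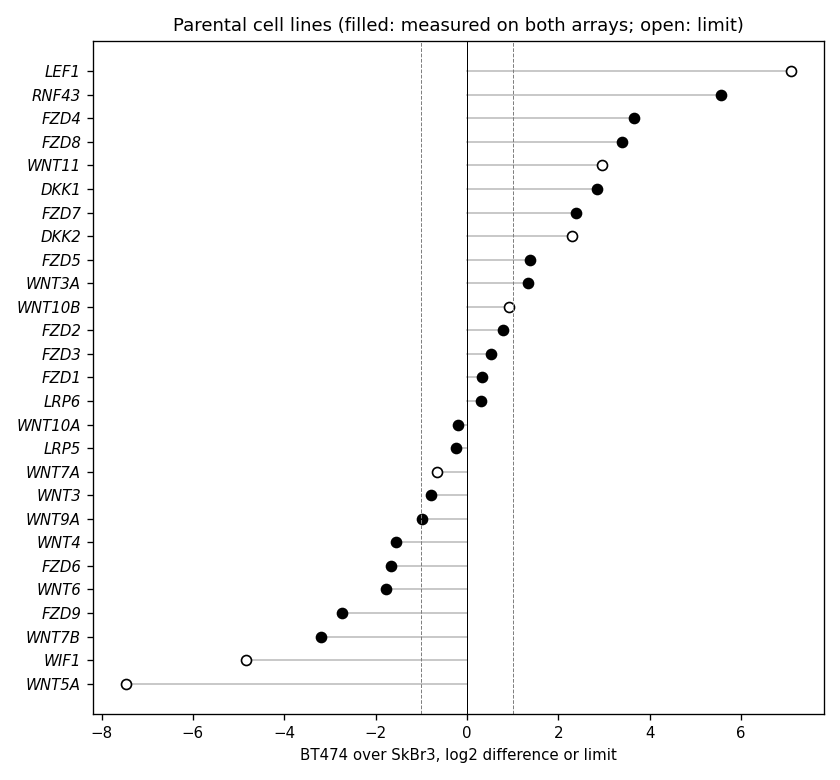
Log2 difference of BT474 over SkBr3 for 27 genes of the set, ordered by value; filled points are measured on both arrays and open points are limits, and dashed lines mark 2-fold. LEF1 and RNF43 stood at the upper end and WNT5A and WIF1 at the lower end, while LRP5, LRP6 and WNT10A lay near 0.

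A list of other genes of the pathway, 61 in number with 58 matched, was read in the same way. In SkBr3/Lap 8 of 46 were at least 2-fold higher and 7 were lower (all genes, 13.9% and 13.4%), and in BT474/Lap 7 of 44 were higher and 3 were lower (all genes, 8.84% and 5.29%). Of 44 with values in both clones, 4 were higher in both (all genes, 2.61%) and none was lower in both (all genes, 1.28%). TCF7L1 alone was lower in SkBr3/Lap and higher in BT474/Lap (1 of 44, against 2.72% of all genes in opposite directions). The 4 were PRICKLE1, of the planar polarity branch (14.0-fold and at least 13.6-fold), the Wnt inhibitor APCDD1 (at least 7.12-fold and 9.04-fold), the co-repressor TLE4 (7.43-fold and 6.87-fold) and the β-catenin partner BCL9 (2.07-fold and 2.77-fold). PRICKLE1 and BCL9 had passed the signal filter through the clones alone, so the count of 4 depends in part on the filter. CTNNB1, which encodes β-catenin, had a relative signal of 276% in SkBr3 against 158% in SkBr3/Lap, and 294% in BT474 against 222% in BT474/Lap, 1.74-fold and 1.32-fold lower in the clones.

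Markers of other cell states differed between clone and parent in mixed directions. Of 11 basal or mesenchymal markers, 6 were well above background in each parental line, 9 in SkBr3/Lap and 8 in BT474/Lap, although their summed signal was 6.96 (SkBr3), 4.66 (SkBr3/Lap), 19.9 (BT474) and 17.5 (BT474/Lap) times the 75th percentile. FN1 made up most of the sum in SkBr3, and VIM most of it in BT474. The relative signal of FN1 was 680% in SkBr3 against 187% in SkBr3/Lap. That of VIM was 1674% in BT474 against 586% in BT474/Lap. KRT5 (at least 14.3-fold), KRT14 (17.01-fold), KRT17 (43.7-fold) and TP63 (13.0-fold) were higher in SkBr3/Lap, and KRT14 (2.83-fold), KRT17 (at least 3.93-fold), TWIST1 (4.97-fold) and SNAI2 (at least 15.8-fold) were higher in BT474/Lap. KRT5 was at background in the BT474 pair. TP63 was only 1.20-fold higher in BT474/Lap, and TWIST1 only 1.11-fold higher in SkBr3/Lap. VIM lay above its parental level in SkBr3/Lap (3.39-fold) and lay below it in BT474/Lap (2.86-fold), FN1 lay below it in both clones (3.63-fold and 1.49-fold), and ZEB1 and ZEB2 were at background on all arrays. Of 5 matched fibroblast markers 2 were above background, in SkBr3/Lap only, with COL1A2, DCN and LUM at background on all arrays, and the summed signal was 0.0122 to 0.208 times the 75th percentile. Of 3 endothelial markers 1 to 3 were above background on each array, and of 4 markers of white blood cells 2 or 3 were, with PTPRC, the marker common to these cells, at background on all arrays. The part of these markers in the differences of the Wnt genes was not tested.

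One test combined the cell lines, by asking with limma whether a gene differed between clone and parent with the cell line as a block. With 1 residual degree of freedom, no gene of the set passed an adjusted p of 0.05, and none of all 25927 probes did. At an unadjusted p under 0.05 limma gave 5 of the 31 genes (ROR1, SFRP1, FRZB, FZD4 and DKK1). Over all kept probes it gave 900, or 3.47%, but the set entered with 1 probe per gene. The fit applied no limit to dim signals. For ROR1 it gave a log2 difference of 5.35, where the limits were 4.89 (SkBr3/Lap) and 1.53 (BT474/Lap). ROR1, SFRP1 and FRZB had passed the signal filter through SkBr3/Lap alone. With no block for cell line the count was 1. Whether the set exceeded the share of all probes was not tested. Of the 5, FZD4 alone was well above background on all 4 arrays, and the adjusted p of each was 1.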

How the data were processed

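The authors deposited scanner output with a processed intensity per spot, linear and background-subtracted by Feature Extraction 10.1.1.1 per the file headers, with 1 Cy3 channel and build hg18. The study's methods name another version, Cy3 or Cy5 and LOWESS, which the headers do not bear out. A deposited table of log2 values gave the same differences between arrays as the log2 processed signals for most probes (largest deviation 0.62). Its scale is log2, centered for each probe, with column medians from −0.20 to 0.12.

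Log2 signals were averaged over the spots of a probe and the 75th percentile of the array, over 41000 non-control probes, was subtracted. Probes with a signal of at least 100 on at least 1 array were kept (25927). Well above background means that 50% or more of the spots carried this flag, and no spot was saturated. No fold change is given when neither signal was well above background or when the limit was under 1. Probes were named through RefSeq accessions in the annotation of GRCh38.p14, which named 23680 probes. Gene coordinates are not given, since the array design uses hg18. Promoter windows and their coordinates are those of GRCh38.p14, at the first start listed for each gene.

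The genes named with values are those at least 2-fold different in a clone, with AXIN2, LRP5 and LRP6; WNT1, WNT2B, WNT9A, WNT11, RNF43 and LEF1 were chosen after their values were seen; genes of the pathway list are named when they differed by 2-fold in the same direction in both clones, with CTNNB1. The genes of the set, the lists and the tests were chosen with earlier results of these data known. Tools were Python 3.11.15, numpy 2.4.6, pandas 2.3.3 and matplotlib 3.10.9, and limma 3.58.1 in R 4.3.3, with Benjamini-Hochberg adjustment over all kept probes. The calculations were tested on simulated data. Alternatives were other scalings, normexp correction (offset 50, on median signals) with quantile normalization, the deposited log2 table, 16 added to the signal, other filters, outlier spots left out, the mean over probes, no limit for dim signals, a 3-fold threshold, and limma with no block or blocked by slide. Precision is limited by the number of arrays, 1 per group.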

Additional observations from a re-analysis of the deposited data

Results flagged for a closer look

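WNT3A changed in opposite directions in the 2 clones. Its log2 difference was −1.84 in SkBr3/Lap and 1.98 in BT474/Lap, each from 1 array per population. The difference between the clones was not tested.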

How the results depend on the processing

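With 1 array per population, the counts rest on fold changes without replicate error, dim signals give only limits, and no array could be left out. Each clone was set against its own parent, so the comparisons were paired by cell line, with 1 array per population in each pair. Only the limma fit with cell line as a block combined the pairs. Scaling by the 75th percentile of probes well above background shifted the median of all probes by 0.25 (SkBr3/Lap) and 0.28 (BT474/Lap) on the log2 scale, and the array median shifted it by 0.16 and −0.21. Of 26 differences of at least 2-fold in a clone, none reversed and 19 stayed past 2-fold under every alternative that gave a value, the 3-fold threshold aside. The 7 others were WNT10A, WNT6, FZD2, FZD8 and ROR1 in BT474/Lap and WNT3A and WNT7A in SkBr3/Lap. Not among the 26, WNT6 in SkBr3/Lap went from a log2 difference of −0.41 to 2.55 with the mean over probes. WNT6 was then past 2-fold upward in both clones, with 2.13 in BT474/Lap. WNT10A, at 0.98 in BT474/Lap under that setting, no longer was.

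The shares of all genes under the same setting are given in parentheses. Keeping only probes that cleared background on every array gave 4 higher (10.2%) and 3 lower (12.7%) genes in SkBr3/Lap. It gave 6 higher (15.7%) in BT474 than in SkBr3, and 1 higher (1.67%) and 1 lower (1.09%) in both clones. The array median gave 5 higher genes in BT474/Lap (7.11%) and 1 in both clones (2.37%), and quantile normalization gave 1 in both clones (2.45%). Normexp gave 0 higher (1.51%) and 0 opposite (1.44%) in both clones, and 16 added to the signal gave 0 higher in both (2.05%). Without the signal filter 5 genes were lower in BT474/Lap (6.02%). Without limits for dim signals, 4 were higher (3.07%) and 2 were opposite (3.58%) in both clones. At 3-fold, 3 genes were higher (4.84%) and 1 was lower (2.23%) in BT474/Lap. In both clones 0 were higher (1.19%) and 1 was lower (0.471%) at 3-fold. The limma count was 0 under all 11 alternatives, in which 1 to 9 genes of the set had an unadjusted p under 0.05. The causes of these changes were not tested, beyond fewer or more genes entering where a filter changed.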

Other observations

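Genes needed to secrete Wnt ligands, chosen here after their values were seen, differed in SkBr3/Lap. WLS, the carrier that takes Wnt proteins to the cell surface, had a relative signal of 4.001% in SkBr3 against 46.4% in SkBr3/Lap, and 203% in BT474 against 133% in BT474/Lap. PORCN, the enzyme that attaches their lipid, had 581% in SkBr3 against 89.2% in SkBr3/Lap, and 441% in BT474 against 499.9% in BT474/Lap. In SkBr3/Lap WLS was thus 11.6-fold higher and PORCN 6.52-fold lower than in SkBr3, while both differed by less than 2-fold in BT474/Lap.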
